A study of Mus musculus with 8 samples.

Results

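The 8 sarcomeric myosin heavy chain genes Myh7, Myh2, Myh1, Myh4, Myh3, Myh8, Myh6 and Myh7b were described in mouse soleus, out of 19938 genes measured. Each was taken as the probe set annotated to that 1 gene symbol with the highest mean over the arrays. All 8 genes had a single such probe set. The soleus is a small, slow muscle of the calf used in standing. It was taken in the basal state, under pentobarbital anaesthesia, from male mice aged 5 months. The 4 Ts65Dn mice are a Down syndrome model with a marker chromosome that gives an extra copy of parts of chromosomes 16 and 17. That chromosome also carries genes without a counterpart on the human Down syndrome chromosome, which limits it as a model. The 4 wild-type (WT) mice were colony controls of the B6EiC3SnF1/J strain, a mixed B6 and C3H background. Each mouse gave 1 array, and values are log2 values from the RMA procedure. The series was made to look for mechanisms of muscle weakness in Down syndrome.

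Myosin heavy chain is the motor protein of the thick filament, and its isoform sets how fast a fibre shortens and how much energy it uses. In adult mouse limb muscle, type I (slow) fibres express Myh7, type IIA fibres Myh2, type IIX fibres Myh1 and type IIB fibres, the fastest, Myh4. Myh3 is the embryonic and Myh8 the perinatal isoform, both of which are also made in regenerating fibres. Myh6 is the alpha isoform of the heart, and Myh7b is an ancient isoform found in heart, slow muscle and muscle spindles. Mouse soleus is known as a mixture of type I and type IIA fibres with some IIX and very few IIB.

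On chromosome 11 lie 5 of the genes side by side, in the order Myh3, Myh2, Myh1, Myh4 and Myh8. Myh6 and Myh7 are neighbours on chromosome 14 and Myh7b is on chromosome 2. None of the 8 is on chromosome 16 or 17. The sequences just before the annotated start of Myh2, Myh1, Myh4 and Myh8 are shown because these 4 genes share a run of 14 bases, in capitals, while Myh2 had the smallest and Myh4 the largest range over the 8 arrays (0.34 and 4.63). They are from RefSeq (GRCm38.p6, plus strand), at chr11:67170842-67170955 for Myh2, chr11:67199882-67199995 for Myh1, chr11:67237594-67237707 for Myh4 and chr11:67277010-67277123 for Myh8.
Myh2: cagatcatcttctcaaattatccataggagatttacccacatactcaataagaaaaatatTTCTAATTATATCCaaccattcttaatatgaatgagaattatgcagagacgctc
Myh1: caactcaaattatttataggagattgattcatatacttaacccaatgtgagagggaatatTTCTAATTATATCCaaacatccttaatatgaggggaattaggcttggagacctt
Myh4: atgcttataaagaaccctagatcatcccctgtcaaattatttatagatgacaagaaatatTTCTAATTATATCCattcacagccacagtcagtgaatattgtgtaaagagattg
Myh8: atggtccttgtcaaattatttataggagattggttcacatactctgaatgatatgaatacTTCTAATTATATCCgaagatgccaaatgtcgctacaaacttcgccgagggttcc

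The run TTCTAATTATATCC began at position -125 from the start site in Myh2, -160 in Myh1, -158 in Myh4 and -54 in Myh8. Of 27025 genes with a promoter sequence, these 4 were the ones that held it on either strand within 250 bases before the start (0.0148%). Both this run and the longer one named next were picked as the longest shared by their genes. Their presence in those genes was thus fixed in advance. The longer run AATATTTCTAATTATATCCA was shared by Myh2, Myh1 and Myh4. A match to the MEF2 box, the site of the MEF2 muscle transcription factors, was found in Myh1, Myh4 and Myh8, against 3.01% of all promoters. The match was TTATTTATAG in all 3, after a stretch of letters that they also share. The 3 matches are thus not independent, and the comparison with all promoters cannot show an enrichment. Each of these MEF2 matches overlapped a TATAAA match on the other strand. TATAAA on either strand was found in Myh1, Myh4, Myh3 and Myh8, against 13.0% of all promoters, with matches at position -32 in Myh1, -31 in Myh4 and -29 in Myh3. The CArG box, the site of serum response factor, matched in Myh4 and in 1.40% of all promoters. The E-box CANNTG of the myogenic factors was found in 6 of the 8 genes and in 66.0% of all promoters. CATTCC, the MCAT element of the TEAD factors, was found in 4 of the 8 and in 12.6%, and the NFAT core GGAAA in 4 and in 55.6%. All motifs were searched on both strands, and a match describes letters only.

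**Figure D1:**
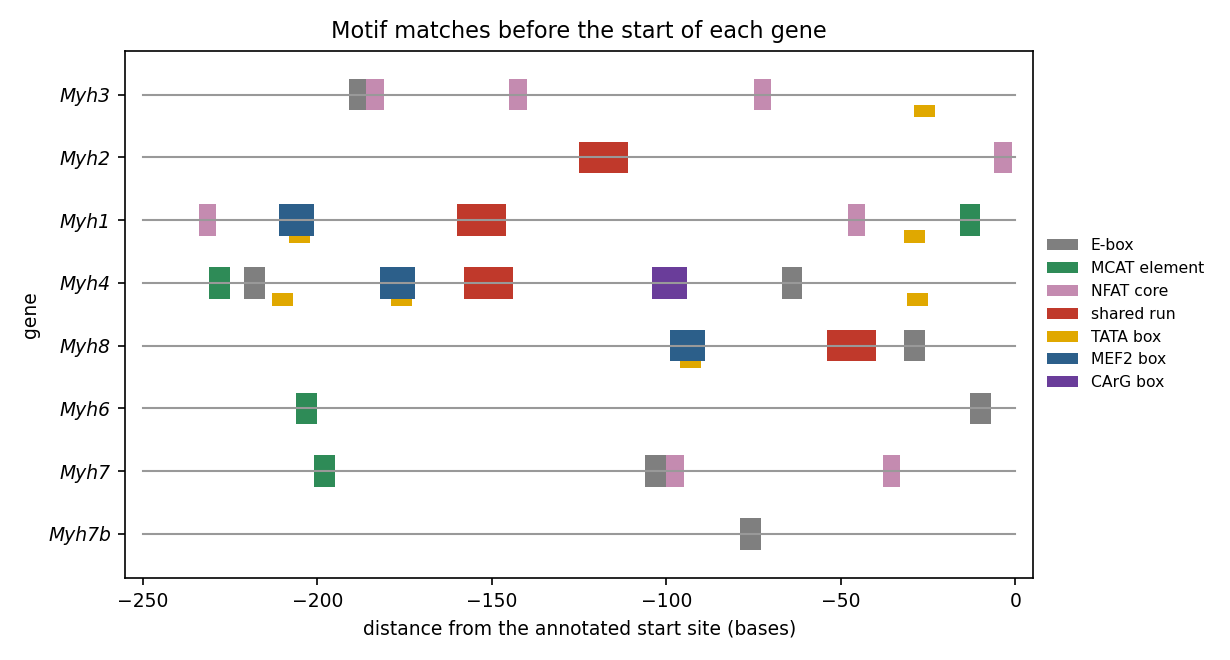
Motif matches in the 250 bases before the annotated start site of each gene, with distance from the start in bases on the horizontal axis and 1 line per gene. Coloured blocks are matches on either strand, and TATA box matches are drawn lower so that their overlap with MEF2 boxes shows. The run of 14 bases (red) is on the lines of Myh2, Myh1, Myh4 and Myh8.

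The labelled tissue was checked with 7 slow-muscle genes, Myh7, the slow troponins Tnnt1, Tnni1 and Tnnc1, the light chains Myl2 and Myl3 and the calcium pump Atp2a2. All 7 were brighter than 95% of genes, and the lowest value of any of them in any array was 9.85. The fast-fibre genes Tnni2, Tnnt3, Tnnc2 and Mylpf were also each brighter than 99.9% of genes. The check thus shows slow-muscle transcripts in every array but cannot tell slow muscle from mixed muscle. Myh7 is also 1 of the genes under study. The groups differed as whole arrays. The array median ran from 4.23 to 4.29 in Ts65Dn and from 4.37 to 4.56 in WT, and the interquartile range from 3.01 to 3.12 against 2.62 to 2.93, with WT arrays 2 and 3 the narrowest. Fold changes of all genes followed the level, and their median was -0.10. For this reason a level-matched value is also given, for which every array's value was set against how far the 100 genes nearest in mean level lay from their own means there, by the median. Of all genes, 5.26% passed limma's test (Benjamini-Hochberg adjusted p under 0.05 over all genes), 462 higher and 587 lower in Ts65Dn. That split was 951 higher and 57 lower with arrays centred on their median, 117 and 18 with cyclic loess, and 80 and 19 level-matched.

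None of the 8 myosin heavy chain genes passed limma's test, and the Ts65Dn and WT ranges overlapped for all 8. The embryonic Myh3 and the perinatal Myh8 had the largest positive log2 fold changes apart from Myh4, 0.64 and 0.66, with an unadjusted limma p under 0.05 in both. Of all genes, 34.8% had such a p in either direction, 12.3% with Ts65Dn higher and 22.6% with Ts65Dn lower, and 6.81% and 15.9% had groups that did not overlap. The slow isoform Myh7 and the fast isoforms Myh2 and Myh1 differed by 0.26 or less. Myh4, the IIB isoform, was high in 1 Ts65Dn mouse, and Myh6 and Myh7b had negative fold changes. Over the 8 genes the median log2 fold change was 0.26, and 6 of 8 were positive, beside 39.2% of all genes. All 8 were brighter than the median gene, and the median fold change among such brighter genes was 0.11. The 39.2% is thus not a like-for-like baseline. Level-matched, the median of the 8 was 0.20.

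**Figure D2:**
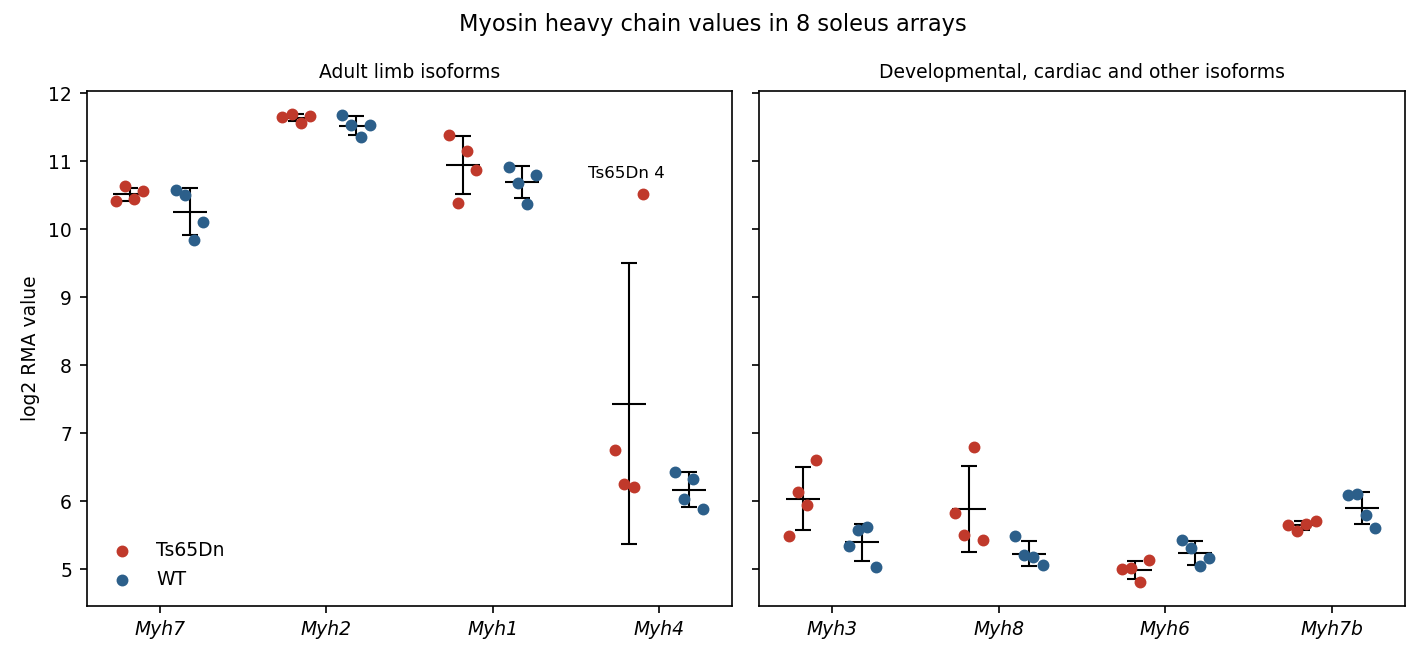
Log2 RMA values of the 8 myosin heavy chain genes, with 1 point per mouse for Ts65Dn (red) and WT (blue) and bars for the mean ± SD of 4 arrays. Myh4 in Ts65Dn array 4, at 10.52, stands apart from the other 7 Myh4 values, and the groups overlap for every gene.

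A probe set's brightness depends on its probes as well as on the transcript, so isoforms were not ranked by level, and the make-up of each muscle is given as how each isoform varied between arrays. On this array Myh7, Myh2 and Myh1 were each brighter than 98.2% or more of all genes, Myh4 than 82.6%, and the other 4 isoforms than 58.9% to 70.6%. The isoforms are close paralogs. The probe sequences were not used here, so how much a probe set sees of a neighbouring isoform was not tested.

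Myh7 (probe set 10419934), the slow isoform, was at 10.42, 10.63, 10.45 and 10.57 in Ts65Dn replicates 1 to 4 and at 10.58, 10.51, 9.85 and 10.11 in WT replicates 1 to 4. WT arrays 3 and 4 were the lowest, and the other 6 arrays lay together. The means were 10.52 ± 0.10 and 10.26 ± 0.35 (SD, n = 4), with a log2 fold change of 0.26 (95% interval -0.11 to 0.63, limma adjusted p = 0.282). Without WT array 3 it was 0.12.

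Myh2 (10377055), the IIA isoform, was the steadiest of the 8. Its values were 11.65, 11.70, 11.57 and 11.66 in Ts65Dn and 11.68, 11.54, 11.35 and 11.54 in WT. All arrays lay within 0.34 of each other. The log2 fold change was 0.12 (95% interval -0.13 to 0.37, limma adjusted p = 0.459).

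Myh1 (10377087), the IIX isoform, varied among the Ts65Dn mice. It was at 11.38, 10.40, 11.15 and 10.87 in Ts65Dn and at 10.92, 10.69, 10.37 and 10.81 in WT. Ts65Dn arrays 1 and 3 were above every WT array, while Ts65Dn array 2 was near the lowest WT array. The SD was 0.43 in Ts65Dn and 0.24 in WT (n = 4), and the log2 fold change was 0.26 (95% interval -0.20 to 0.72, limma adjusted p = 0.384).

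Myh4 (10377117), the IIB isoform, was at 6.76, 6.25, 6.22 and 10.52 in Ts65Dn and at 6.44, 6.04, 6.33 and 5.89 in WT. Ts65Dn array 4 was 3.76 above the next array, and the other 7 arrays lay between 5.89 and 6.76. Among all 19938 genes this was the 2nd largest gap between the highest array and the next. The Ts65Dn median was 6.51 against 6.18 in WT, while the mean was 7.44 ± 2.07 against 6.17 ± 0.25 (SD, n = 4). The log2 fold change of 1.26 had a 95% interval of -0.48 to 3.01 (limma adjusted p = 0.265). Without Ts65Dn array 4 it was 0.24.

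In the same mouse the other isoforms stayed within the range of the other arrays except Myh3. Genes that mark fast IIB muscle were followed beside it. The fast alpha-actinin Actn3 was at 9.26 in Ts65Dn array 4, the highest of 8, with 7.76, 6.77 and 6.14 in the other Ts65Dn arrays and 5.04 to 7.33 in WT. The calcium buffer Pvalb was at 11.09 there, below WT array 3 at 11.12, and the fast myosin-binding protein Mybpc2 was at 8.11, below Ts65Dn array 1 at 8.26 and WT array 2 at 8.21. These 3 were chosen after their values were seen. Of the whole list of 19 fast-fibre genes, 3 had their highest value in that array (Actn3, Mybph and Tnnt3), against 6 in Ts65Dn array 2, 4 in Ts65Dn array 1 and 4 in WT array 3. The 5 macrophage markers had a summed level of 9.53 in that array, against 7.49 to 8.61 in the other Ts65Dn arrays and 6.69 to 7.18 in WT. Cd68, a lysosomal protein of macrophages, was at 9.31 there, the highest of its 8 values, and passed limma's test over all arrays (log2 fold change 2.39, adjusted p = 0.0475). The sum is carried by Cd68. In that array Cd163 was also at its highest, 4.91, while Csf1r at 4.86 was the second lowest of its 8 values and Adgre1 was at 3.49, with a log2 fold change of -0.05 over all arrays. The part of other fast muscle or of macrophages in the Myh4 value was not tested.

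The gene whose level-matched values over the 8 arrays were most like those of Myh4, among the genes above the median level, was Sprr1a (Pearson r = 0.991), followed by Mt2 (0.944) and Tbx4 (0.931). Mt2, a metal-binding metallothionein, was at 9.45 in Ts65Dn array 4 and between 5.80 and 6.89 in the other 7. Sprr1a, a small proline-rich protein, was at 6.52 there and between 4.20 and 5.11 elsewhere, and the T-box factor Tbx4, which marks the hind limb, at 5.71 against 5.04 to 5.24. All 3 likenesses rest on that array. Actn3 had an r of 0.785.

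**Figure D3:**
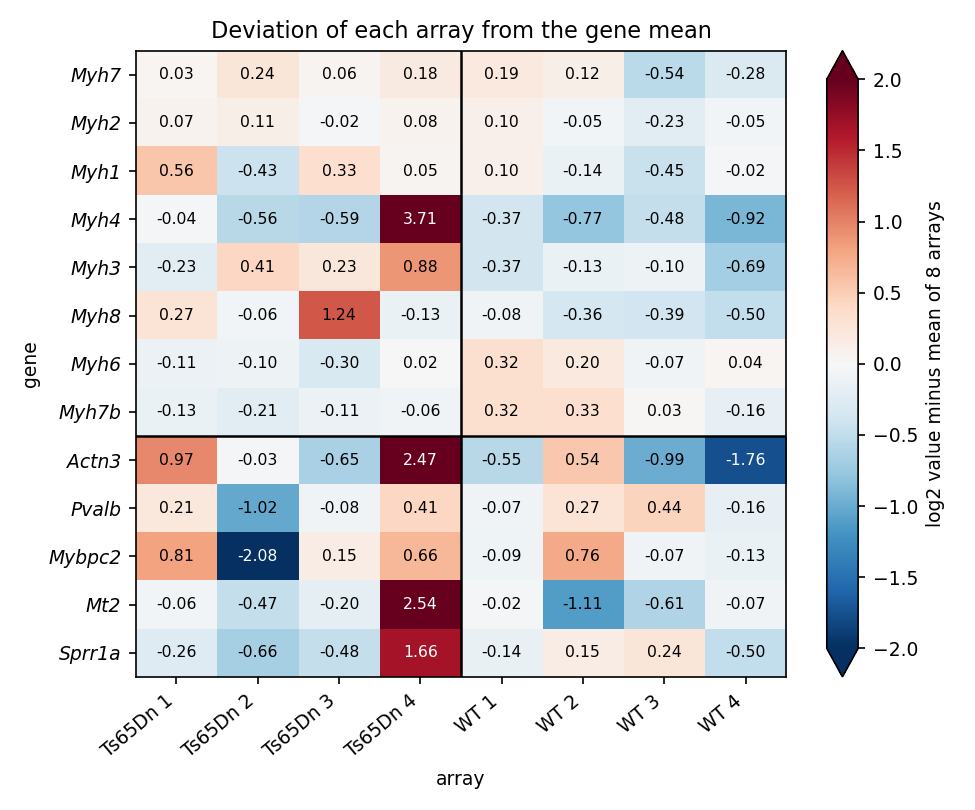
Deviation of each array from the gene's mean over 8 arrays, in log2 units, for the 8 myosin heavy chain genes (above the line) and for 3 fast-muscle markers and 2 genes like Myh4 (below it), with Ts65Dn arrays left of the vertical line. Ts65Dn array 4 shows high Myh4, Actn3, Mt2 and Sprr1a together, and Ts65Dn array 2 low Myh1, Pvalb and Mybpc2. Of the 19 fast-fibre genes, most of them not drawn, 6 had their highest value in Ts65Dn array 2. Colours are capped at 2 in either direction.

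Ts65Dn array 2, with the second lowest Myh1 value, also had the lowest Pvalb (9.66) and the lowest Mybpc2 (5.37) of the 8 arrays. Mybpc2 was between 7.32 and 8.26 in the other 7. Fast genes were not low there as a class. Of the 19 fast-fibre genes, 6 had their highest value in Ts65Dn array 2 (Casq1, Mylpf, Pfkm, Tnnc2, Tnni2 and Tpm1), the most of any array. WT array 3, with the lowest Myh1 (10.37), had the highest Pvalb (11.12). Over the 8 arrays the level-matched Mybpc2 had an r of 0.549 with Myh1. The 3 genes most like Myh1 were Myo5b (r = 0.948), a transport myosin, the integrin chain Itgav (0.938) and the thiamine transporter Slc19a2 (0.912). Those most like Myh7 were Gatad2b, Tmem87a and Morc2a (0.969, 0.953 and 0.948), and those most like Myh2 were Morc2a, Ncbp3 and Adam17 (0.992, 0.981 and 0.980). All of the genes listed for Myh7 and Myh2 had their lowest value in WT array 3, as Myh7 and Myh2 did. That array also had the narrowest interquartile range. These correlations describe 8 arrays that share a scaling, and the genes were picked for being the highest of 9961.

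Ratios of 2 isoforms within an array remove any shift common to the array, but not one that depends on level. The log2 value of Myh2 minus that of Myh7 was 1.23, 1.06, 1.12 and 1.10 in Ts65Dn and 1.10, 1.03, 1.51 and 1.43 in WT. The Ts65Dn mice lay close together, inside the WT range. For Myh1 minus Myh7 the values were 0.96, -0.24, 0.70 and 0.31 against 0.34, 0.18, 0.53 and 0.70. The means of this fast over slow ratio were 0.43 ± 0.52 and 0.43 ± 0.23 (SD, n = 4), so the groups had like means and the Ts65Dn mice spread more widely. Myh1 minus Myh2 ran from -1.30 to -0.27 in Ts65Dn and from -0.98 to -0.73 in WT. Myh4 minus Myh7 was -3.66, -4.38, -4.23 and -0.05 in Ts65Dn and -4.14, -4.47, -3.52 and -4.22 in WT. Apart from array 4, these Ts65Dn values lay within the WT range. The 100 genes nearest in level had a median log2 fold change of 0.35 for Myh4 and 0.05 for Myh7. With level-matched values, 2 Ts65Dn arrays were below every WT array in Myh4 minus Myh7 and 1 was above.

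Myh3 (10377018), the embryonic isoform, was at 5.49, 6.13, 5.95 and 6.60 in Ts65Dn and at 5.35, 5.59, 5.62 and 5.03 in WT. The 3 highest arrays were Ts65Dn 4, 2 and 3, and Ts65Dn array 1 lay among the WT arrays. The log2 fold change was 0.64 with an SE of 0.22 (95% interval 0.15 to 1.14), and limma's p was 0.0157 unadjusted and 0.0823 adjusted. The 100 genes nearest in level had a median of 0.09, and the level-matched value was 0.56.

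Myh8 (10377148), the perinatal isoform, was at 5.83, 5.51, 6.80 and 5.43 in Ts65Dn and at 5.49, 5.21, 5.18 and 5.06 in WT. Ts65Dn array 3 was the highest, and Ts65Dn array 4 lay inside the WT range. The log2 fold change was 0.66 with an SE of 0.27 (95% interval 0.07 to 1.25), with a limma p of 0.0313 unadjusted and 0.112 adjusted. Without Ts65Dn array 3 it was 0.36. The highest Myh3 and the highest Myh8 were thus in different mice.

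Markers of satellite cells and regenerating fibres are given beside these developmental isoforms. Of 10 genes, 1 was called higher and 0 lower by limma, beside 2.32% and 2.94% of all genes. Of the same 10, 4 had an unadjusted p under 0.05 with Ts65Dn lower, beside 22.6% of all genes. Their median log2 fold change was -0.25, and -0.10 level-matched. The called gene was Actc1, the cardiac actin that developing and regenerating fibres also make, with 9.79 ± 0.42 against 8.61 ± 0.46 (SD, n = 4, limma adjusted p = 0.0456). The fusion genes Mymk and Mymx had log2 fold changes of -0.52 and -0.42, the fetal acetylcholine receptor subunit Chrng -0.57 and the cadherin Cdh15 -0.52. Genes of that level were lower as a whole, and the level-matched values were -0.34, -0.20, -0.31 and -0.29. The myogenic factors Myog and Myod1 were at 0.28 and -0.04. The summed level of the list ran from 10.08 to 10.73 in Ts65Dn and from 9.51 to 9.91 in WT, and all 10 were brighter than the median gene. Actc1 carries this sum, and 3 of the 10 had a positive log2 fold change. Endothelial markers had a summed level of 8.32 to 8.84 in Ts65Dn and 7.77 to 8.31 in WT, ranges that nearly touch. Of these 5 markers 1 was called higher, the VEGF receptor Kdr (0.99), and 0 lower, beside 2.32% and 2.94% of all genes. Tek was at 0.74, Pecam1 at 0.58 and Cdh5 at 0.54, while Cldn5 was at -0.30. The groups overlapped for Pecam1, Cdh5 and Cldn5. The part of such cells in the Myh3 and Myh8 values was not tested. Fewer cells of a type and less RNA per cell cannot be told apart in whole muscle.

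Myh6 (10419900), the cardiac alpha isoform, was at 5.01, 5.01, 4.81 and 5.13 in Ts65Dn and at 5.44, 5.32, 5.05 and 5.16 in WT. In Ts65Dn, 3 arrays were below every WT array. The log2 fold change was -0.25 (95% interval -0.53 to 0.03, limma adjusted p = 0.185), while the 100 genes nearest in level had a median of -0.15, which leaves -0.10 level-matched.

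Myh7b (10477673) was at 5.65, 5.57, 5.67 and 5.71 in Ts65Dn and at 6.10, 6.11, 5.80 and 5.62 in WT. The Ts65Dn mice were close together, and WT array 4 was as low as they were. The log2 fold change was -0.26 (95% interval -0.56 to 0.04, limma adjusted p = 0.198) and -0.35 level-matched.

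Relative to Myh7, both isoforms were lower in all 4 Ts65Dn arrays than in any WT array. Myh6 minus Myh7 was -5.53 ± 0.12 in Ts65Dn and -5.02 ± 0.18 in WT (SD, n = 4), and Myh7b minus Myh7 was -4.87 ± 0.14 and -4.35 ± 0.21. Taken against Myh7 in this way, 15.5% of all genes lay below every WT array and 1.57% above. With level-matched values, Myh7b minus Myh7 stayed lower in 4 of 4 Ts65Dn arrays, and Myh6 minus Myh7 in 3. The share of all genes was not computed in that form, so these counts have no background beside them. Both ratios also share Myh7, which was lowest in WT arrays 3 and 4.

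Of 5 intrafusal fibre markers, the fibres of the muscle spindle, 0 were called higher and 1 lower, beside 2.32% and 2.94% of all genes. That gene was the spindle transcription factor Egr3, with 5.52 ± 0.04 in Ts65Dn and 6.08 ± 0.27 in WT (SD, n = 4, limma adjusted p = 0.0493). It is also an activity-regulated gene. The summed level of the 5 ran from 6.73 to 7.003 in Ts65Dn and from 7.02 to 7.57 in WT, and 4 of them were dimmer than the median gene. Egr3 was the brightest of the 5 and weighs most in this sum. Over the 5 the median log2 fold change was -0.30, and -0.05 level-matched. Level-matched, Egr3 was at -0.61, Tecta at -0.28 and Etv4 at -0.05, against 0.12 for Calb2 and 0.37 for Etv1. Of 7 cardiac markers, 0 were called higher and 1 lower, beside 2.32% and 2.94% of all genes. The called gene was the cardiac myosin-binding protein Mybpc3 (-0.55, adjusted p by limma 0.0475), which was -0.33 and not called level-matched. The summed level of the 7 markers ran from 9.42 to 9.78 in Ts65Dn and from 9.58 to 9.99 in WT. Their part in the Myh6 and Myh7b values was not tested.

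**Figure D4:**
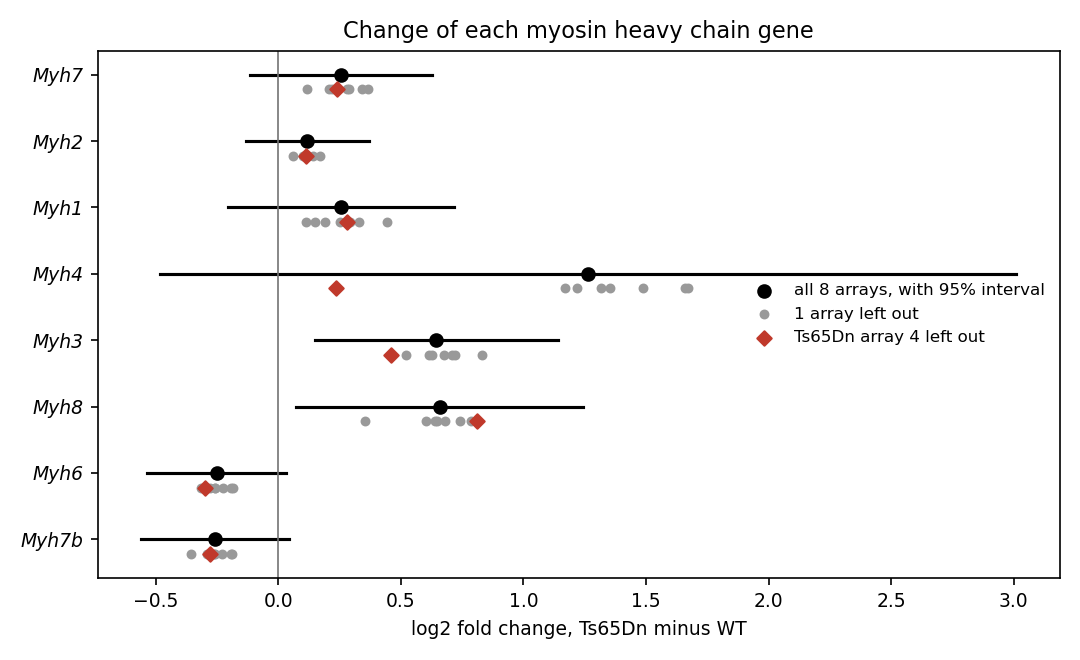
Log2 fold change of each myosin heavy chain gene, Ts65Dn minus WT, on all 8 arrays (black, line for the 95% interval from limma) and with 1 array left out (grey, red diamond for Ts65Dn array 4). The Myh4 value drops from 1.26 to 0.24 without that array, and Myh3 and Myh8 are the 2 genes whose interval lies above 0.

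**Figure D5:**
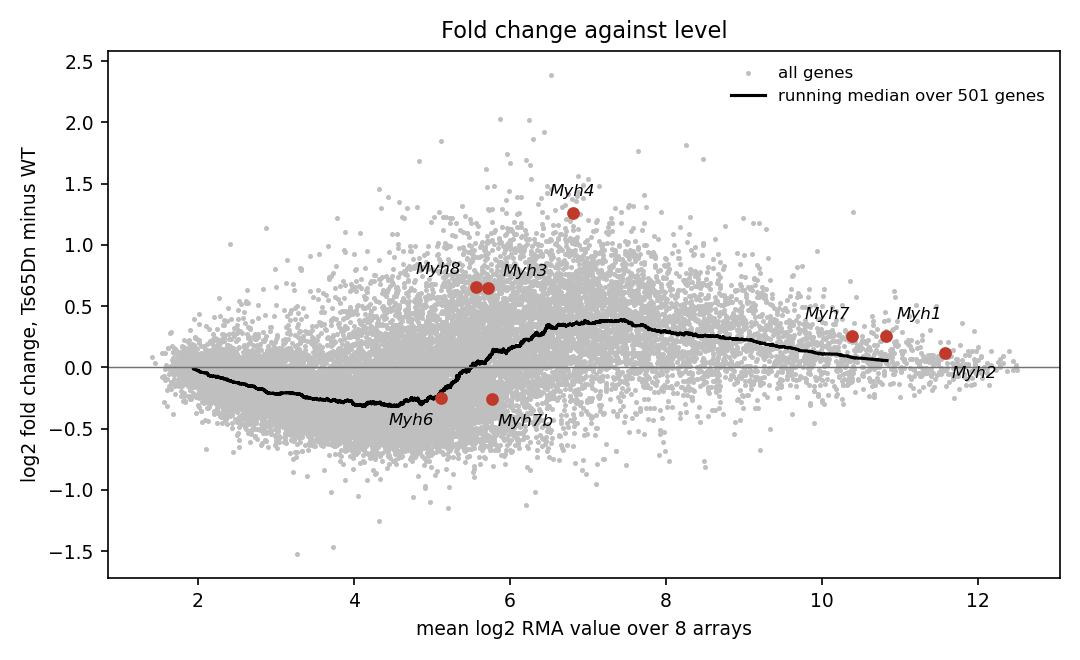
Log2 fold change against mean log2 value over 8 arrays for all 19938 genes (grey), with a running median over neighbouring genes (black) and the 8 myosin heavy chain genes (red). The running median is below 0 for dim genes and above 0 for genes of middle level, and Myh6 lies close to it.

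Myosin genes host a family of miRNAs that take part in the choice between slow and fast isoforms. The 3 mature sequences are shown with the seed, bases 2 to 8, in capitals, because all 3 share its first 6 bases. They are from RefSeq (GRCm38.p6), at chr14:54949072-54949093 on the minus strand within Myh6, chr14:54975710-54975731 on the minus strand within Myh7 and chr2:155622893-155622913 on the plus strand within Myh7b.
mmu-miR-208a-3p: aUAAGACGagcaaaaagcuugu
mmu-miR-208b-3p: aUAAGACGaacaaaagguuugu
mmu-miR-499-5p: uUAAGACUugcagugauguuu

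The seed UAAGACG is shared by miR-208a-3p and miR-208b-3p, and the seed UAAGACU of miR-499-5p has the same first 6 bases. Of the 1738 mature sequences in the table, 2 have the first seed and 1 the second. The Mir208a probe set was at 2.12 ± 0.08 in Ts65Dn and 2.29 ± 0.29 in WT, and Mir499 at 2.66 ± 0.20 and 2.87 ± 0.15 (SD, n = 4). Both were among the dim probe sets, with limma adjusted p-values of 0.413 and 0.281. Mir208b was not analysed here. In the list of these miRNAs and their known targets, 1 of 7 measured genes was called higher and 0 lower, beside 2.32% and 2.94% of all genes. The called gene was Purb, a repressor of slow myosin transcription, which was at 5.81, 5.97, 5.62 and 5.94 in Ts65Dn and 4.76, 4.46, 4.96 and 5.24 in WT. All 4 Ts65Dn arrays were above the WT arrays, and the log2 fold change was 0.98 (limma adjusted p = 0.0456, level-matched 1.06). With the mean of its probe sets in place of the brightest it was 0.36 and not called (limma adjusted p = 0.130). Med13, a subunit of the Mediator kinase module, was 1.27 higher on the log2 scale (limma adjusted p = 0.0742, not called), which was 0.57 without WT arrays 2 and 3. Those of the repressors Sp3 and Hbp1 were 0.37 and 0.59, and 0.06 and 0.11 without these arrays. The Sp3 value was -0.11 with the mean of all its probe sets. Sox6, a repressor of slow genes in fast fibres, was at 0.05, and at -0.29 level-matched.

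In the list of transcription factors and cofactors of isoform choice, 7 of 31 measured genes were called higher and 0 lower, beside 2.32% and 2.94% of all genes. The median log2 fold change was 0.23, beside -0.10 for all genes, and 0.19 level-matched. They were Purb, the TEAD factor Tead4 (1.09), the kinase Dyrk1a (1.22) and the calcineurin inhibitor Rcan1 (0.84), both of which Ts65Dn mice carry in an extra copy, the nuclear receptor Esrrg (0.66), the cofactor Eya4 (0.61) and Mef2a (0.68). Mef2a was at 0.42 without WT arrays 2 and 3, and Dyrk1a at 0.40 and not called with the mean of its probe sets. Level-matched values were 0.39 for Esrrg, 0.45 for Mef2a and 0.59 for Rcan1, none of them called. The adjusted p-values by limma ran from 0.0456 to 0.0493. For the calcineurin-responsive factor Nfatc1, which favours slow genes, the log2 fold change was 0.20 and for the slow-fibre coactivator Ppargc1a 0.41, with limma adjusted p-values of 0.400 and 0.179 and level-matched values of 0.06 and 0.16.

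Among 15 slow-fibre genes, 1 was called higher and 0 lower, beside 2.32% and 2.94% of all genes, with a median of 0.09. Of the 15, 4 had an unadjusted limma p under 0.05 with Ts65Dn higher, beside 12.3% of all genes, and 0 with Ts65Dn lower, beside 22.6%. Myl6b, an essential light chain of slow muscle, rose by 1.48 (limma adjusted p = 0.0449), while the LIM protein Csrp3 was at 0.51, Fhl1 at 0.50 (0.28 without WT arrays 2 and 3) and Ankrd2, a stretch-responsive ankyrin protein, at 0.36. Among 19 fast-fibre genes, 0 were called by limma, and the median was 0.07. Of the 19, 3 had an unadjusted p under 0.05 with Ts65Dn higher, beside 12.3% of all genes, and 0 with Ts65Dn lower, beside 22.6%. Those with the smallest p were Myoz1 (0.47), Myoz3 (0.53), Mybph (0.37) and Actn3 (1.38), the first 2 of them partners of calcineurin at the Z-disc. Without Ts65Dn array 4 Actn3 was at 0.78, and Myoz3 was at 0.18 level-matched. All Ts65Dn arrays were above all WT arrays for Myl6b, Csrp3, Fhl1, Ankrd2 and Mybpc1 of the slow list and for Myoz1 of the fast list. Of all genes, 6.81% were so. Both fibre-type lists had medians near 0, above the -0.10 of all genes. Every gene of both lists was brighter than the median gene, and the median among such brighter genes was 0.11. Level-matched, the list medians were 0.09 for slow and 0.05 for fast.

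Of 18 measured genes of myosin folding, assembly and turnover, 2 were called higher and 0 lower, beside 2.32% and 2.94% of all genes. The median of 0.25 became 0.11 with level-matched values. Both called genes are M-band proteins that link thick filaments, Myom2 (1.09) and Myom3 (0.94, level-matched 0.59). Stip1, a cochaperone of Hsp90, was at 0.48 (0.25 without WT arrays 2 and 3) and Mybphl at -0.48 (-0.19 level-matched). Unc45b, the myosin chaperone, and Smyd1, the methyltransferase that works with it, were at 0.20 and 0.51, with limma adjusted p-values of 0.234 and 0.0734 and level-matched values of -0.01 and 0.15.

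The non-muscle and other heavy chains were a separate list of 6, of which limma called 0. At an unadjusted p under 0.05, 1 was higher and 2 were lower, beside 12.3% and 22.6% of all genes. Myh10, a non-muscle myosin, was at 8.29, 8.18, 7.49 and 7.01 in Ts65Dn and at 7.24, 7.35, 6.60 and 6.49 in WT. The groups overlapped, and the log2 fold change was 0.82 (limma adjusted p = 0.0880, level-matched 0.42). The extraocular isoform Myh13 was at -0.49, Myh15 at -0.29 and the non-muscle Myh9 at 0.21, with Myh9 at 0.42 without WT arrays 2 and 3. Level-matched, Myh13 was at -0.20 and Myh15 at -0.09. Across the 91 genes of these pathway lists limma called 10, beside 5.26% of all genes. It called 0 when any 1 of the 4 Ts65Dn arrays, WT array 2 or WT array 3 was left out, 18 without WT array 1 and 13 without WT array 4. The counts over all 19938 genes moved in the same way, to 2865 without WT array 1 and 2422 without WT array 4. It also called 0 with quantile normalization or with the replicate number as a block. With level-matched values it called 1, Purb, which was among those not called with the mean of probe sets. Of the 5 called marker genes (Actc1, Cd68, Egr3, Kdr and Mybpc3), 0 were called without any 1 Ts65Dn array, without WT array 2 or 3 or with the block, and 1, Kdr, level-matched.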

How the data were processed

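The authors used RMA in Affymetrix Expression Console 1.1, per the submitters' processing notes. RMA subtracts background, quantile-normalizes the arrays and gives 1 value per probe set. The range of the deposited values shows a log2 scale. No genome build is given in the sources used here. Probe sets were named through the platform annotation, and of 35556 probe sets 21789 had 1 symbol, 1621 several and 12146 none. Symbols were updated by Entrez identifier with the RefSeq gene table (GRCm38.p6), and the brightest probe set per gene was kept. Sequences are from RefSeq tables of that build.

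Groups were compared with limma 3.58.1 (lmFit, eBayes, two-sided) in R 4.3.3 over all 19938 genes, without covariates. The fit was tested on simulated data in which each gene varied independently around its mean. Those data held no differences between whole arrays, so the test cannot show how the fit behaves under such differences. The number of arrays limits the precision. Lists were described by counts, and genes were named by rule: all 8 members, called genes or the 4 smallest p-values of each list, and the 3 genes most like each adult isoform. Nfatc1, Ppargc1a, Sox6, Pvalb, Mybpc2, Unc45b, Smyd1 and the uncalled marker genes were named outside that rule, after their values were seen. The members and lists were chosen with earlier results of these data known.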

Additional observations from a re-analysis of the deposited data

Results flagged for a closer look

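Groups of 4 arrays were examined for a single array far from the other 3, by the gap to the nearest array as a share of the range (Dixon's critical value 0.829), in 96 groups. Chance gives about 1 in 20, and 5 were found. Myh4 in Ts65Dn array 4 was at 10.52, with the nearest Ts65Dn array at 6.76, a share of 0.874. The ratio Myh4 minus Myh7 in the same array was -0.0476, with the nearest at -3.66. In WT, Hbp1 was lowest at 5.99 in array 3, Mybphl highest at 5.07 in array 2 and Tead4 highest at 6.85 in array 2.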

How the results depend on the processing

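All 8 myosin heavy chain genes kept the sign of their log2 fold change under the 19 alternatives run, and limma called 0 of 8 in each. The range was 0.12 to 0.46 for Myh7, 0.04 to 0.32 for Myh2, 0.09 to 0.46 for Myh1, 0.24 to 1.67 for Myh4, 0.46 to 0.85 for Myh3, 0.36 to 0.86 for Myh8, -0.31 to -0.05 for Myh6 and -0.35 to -0.05 for Myh7b. The lowest adjusted p of any member was 0.0519, for Myh3 with arrays centred on their median. The difference in Myh6 minus Myh7 was -0.51 and moved to -0.33 with quantile normalization, and the log2 fold change of Sp3 turned to -0.11 when its probe sets were averaged. The number of genes called over all genes, 1049, was 1 with quantile normalization, 436 among genes above the median level, 236 with array weights, 135 with cyclic loess, 99 level-matched, 1 without WT arrays 2 and 3 together, 1 with all probe sets adjusted together, and between 0 and 2865 with single arrays left out. With the replicate number as a block it was 0. Arrays with the same number had weak correlations of 0.01 to 0.09 in their deviations from the group means. The WT replicates most like Ts65Dn replicates 1 to 4 were 4, 1, 3 and 4, the same number for replicates 3 and 4 only. Whether the numbers pair mice was not settled. The cause of the changes in the number of genes called was not tested. Cyclic loess, level matching, leaving out both WT arrays and adjusting all probe sets were added with the data known.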
